A study of Rattus norvegicus with 18 samples.

Results

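The lungs described here are the 6 control lungs of a rat study of lung ischaemia and reperfusion, which are the baseline of that study. They are the 6 arrays, of 18 in the series, whose titles name them as controls, and no operated lung was used. Each came from a different male Sprague-Dawley rat, an outbred stock. The rats were anaesthetised and killed, and the lung was taken at once. No thoracotomy, hilar clamp, reperfusion or period of ventilation is recorded for these 6 rats. The labels do not give their age or weight, which lung was taken, the time of day or the order in which arrays were run. Total RNA of frozen lung was labelled and hybridised to a 1-colour Affymetrix rat 230A array, on which a gene is read by 1 or more probe sets of short oligonucleotides.

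The gas-exchange surface of the lung is lined by flat type I cells and by cuboidal type II cells, which make surfactant, the film of lipid and protein that keeps alveoli open. Beneath lie a dense capillary endothelium and a thin matrix of collagen and elastin, while the conducting airways are lined by ciliated cells and by secretory club cells. Resident macrophages patrol the air spaces, and whole-lung RNA also holds that of blood left in the vessels, of smooth muscle and of the large vessels near the hilum.

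The values are MAS5 signals on a linear scale, in arbitrary units. The table held 15923 probe sets, of which 57 were array controls. The other 15866 gave 10411 named genes, each represented by its probe set of highest mean log2 signal. Spread was tested for the 9652 probe sets, and 7174 genes, with a signal above 182.94, the 40th percentile over the 6 arrays, in at least 3 of them. The median signal of an array was 275 ± 7.91 (SD, n = 6). The ratio of 3' to 5' signal, a measure of RNA integrity, was between 1.31 and 1.54 for the actin Actb and between 1.08 and 1.33 for Gapdh. Lung 5 had the lowest median signal, 261.9, and the lowest 25th percentile, 78.6 against 88.7 to 101.9 in the other lungs. Over the tested genes, the Spearman correlation between 2 lungs had a median of 0.967 over 15 pairs. It was lowest for lungs 3 and 5 (0.955) and highest for lungs 3 and 4 (0.979). These correlations are across genes, which share their array and are not independent. The deviations of lungs 3 and 4 from the mean of the 6 lungs correlated at 0.27, and the other 14 pairs lay between -0.48 and -0.01. Deviations from a mean that includes both lungs tend to correlate negatively by construction, so negative values alone do not show opposed lungs. The median absolute log2 difference of lungs 3 and 4, 0.12, was close to that of lungs 1 and 6, 0.11. Lungs 3 and 4 were treated as separate samples. Whether they shared handling or an array batch is not recorded and was not tested. Many of the differences described here set lungs 3 and 4 against the rest or lung 5 against the rest. These patterns were noticed in the values, so they are described and not tested.

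The strongest signals of normal lung came from an antimicrobial enzyme, surfactant proteins, the club cell protein, globin, mitochondrial transcripts and the machinery of translation. Lyz2, the lysozyme of macrophages and type II cells, had the highest mean signal, 13838 ± 943 (SD, n = 6). Its signals in lungs 1 to 6 were 14011, 14940.3, 13442, 13915, 14495 and 12224. Sftpc, the surfactant protein made only by type II cells, followed with 13754 ± 831 and single values of 12483, 13418, 13746, 14069, 15029.8 and 13782. The ranges of these genes overlapped, so their order is not settled. Hbb, a beta globin chain of red cells, had 13228 ± 1467, from 11152 to 15011. Scgb1a1, the main secreted protein of club cells, had 12307 ± 421 and single values of 12311, 12064, 12513, 12419.5, 12888 and 11649. Sftpa1, a collectin of surfactant, had 12251 ± 343. Tmsb4x, a small actin-binding peptide, held 12831 ± 206 and was the steadiest gene of these. A signal depends on how well each probe set binds its target, so ranks order signals and not numbers of molecules. In bulk tissue, fewer cells of a type and less RNA per cell cannot be told apart.

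The 40 genes of highest mean signal fell into a few groups. Of the surfactant system there were also Sftpb (8472 ± 369), which spreads the lipid film, Sftpd (8239 ± 714), a host-defence collectin, and Slc34a2 (8053 ± 377), the phosphate transporter of type II cells. The mitochondrial genome gave COX1 (12855 ± 783) and COX2 (11718 ± 402), subunits of cytochrome oxidase. Ribosomal proteins gave 10 of the 40, led by Rps23 (11866 ± 432) and Rps29 (11351 ± 945), and Eef1a1 (10393 ± 901) brings tRNA to the ribosome. Defence and antigen presentation gave B2m (10902 ± 954), the light chain of class I molecules, Cd74 (8517 ± 741), the invariant chain of class II, and Defb4 (9072 ± 529), an epithelial defensin. Matrix and cytoskeleton gave Gsn (10201 ± 344), an actin-severing protein, Mgp (9878 ± 494), an inhibitor of calcification, and Mfap4 (8825 ± 648), an elastic fibre protein. Cav1 (8539 ± 481) coats the caveolae of endothelium and type I cells, and Epas1 (8454 ± 309) is the hypoxia-inducible factor of endothelium. The other members were S100a6, Txn1, Actg1, Sptbn1, Selenop, Txnip, Ifi27, App, Gpx3 and Igfbp7, with means from 7805 ± 566 for Igfbp7 to 8912 ± 306 for Sptbn1.

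**Figure D1:**
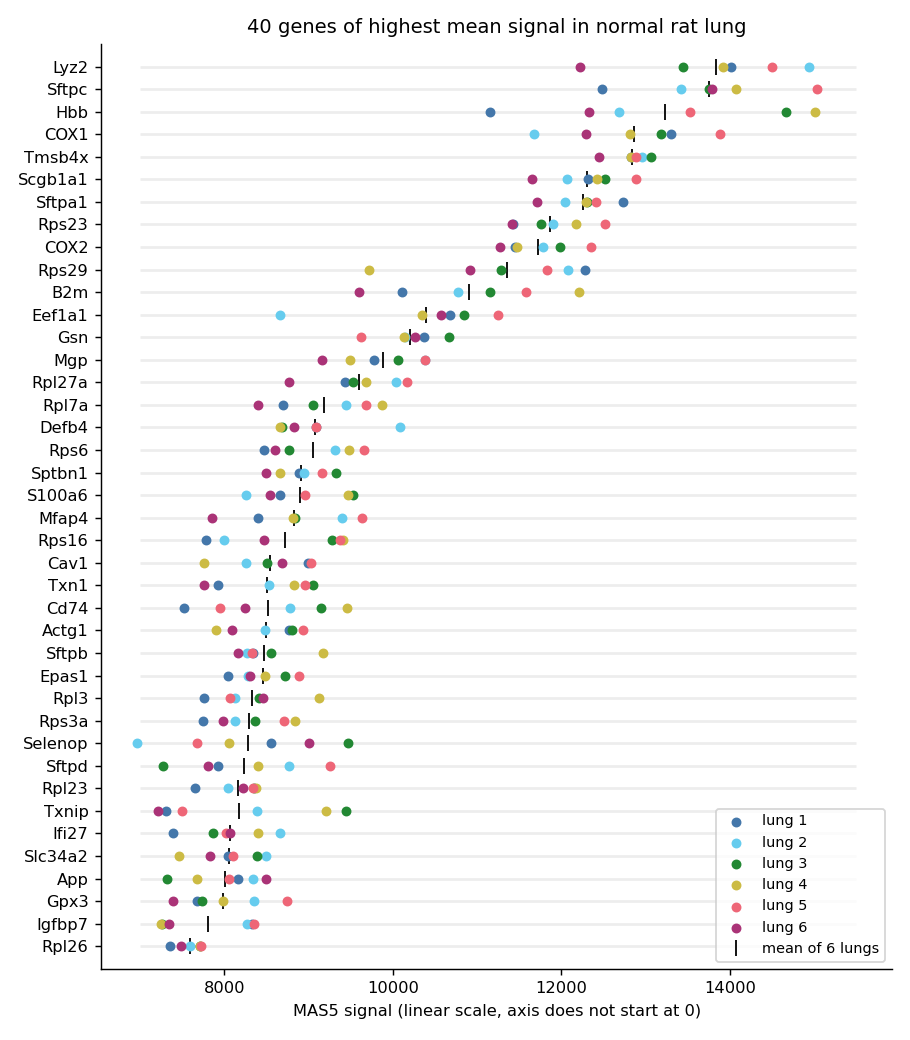
The 40 genes of highest mean signal in normal rat lung, 1 row a gene. The x axis is MAS5 signal on a linear scale that does not start at 0, points are the 6 lungs and the tick is their mean; the points of neighbouring genes overlap throughout, and Tmsb4x and Rpl26 have the narrowest spread.

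No single transcript dominated the array. The 100 genes of highest signal in each lung held 10.8 ± 0.216% of the summed signal of the named genes (SD, n = 6). The first 10 held 1.78 ± 0.0456% and the first 1000 held 44.1 ± 0.695%. The highest gene mean, 13838, stood against a median gene mean of 368. Of the genes ranked among the first 100 in any lung, 123 in all, 78 were there in all 6 lungs. Among the first 40 genes, none of the 39 neighbouring pairs kept its order in every lung, while the median SD of these genes was 0.08 on the log2(signal + 25) scale, with a largest value of 0.17 for Txnip (7311, 8389, 9441, 9202, 7494 and 7213). Txnip, a thioredoxin-binding regulator of glucose uptake, was highest in lungs 3 and 4. Saturation of the brightest probe sets was not tested, since the table gives no flag for it.

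Cell type markers gave the make-up of the tissue in outline. The top 10% of mean signal held 1041 of the 10411 named genes, 10%, and this share stands behind each count of markers that follows. All 12 measured markers of type II cells were in it. Besides the surfactant genes these included Napsa (3772 ± 416), a protease that matures surfactant proteins. Lpcat1, which makes the main surfactant lipid, had 2541 ± 209, and Nkx2-1, the transcription factor of lung epithelium, had 2185 ± 177. Chia, an acidic chitinase, was the most variable of the 12, with 1771, 1555, 2093, 2307, 3207 and 2053 in lungs 1 to 6 and its highest value in lung 5. For the 12 genes of the surfactant and lamellar body list, 9 of them in the top 10%, the summed signal was 0.907 ± 0.0199% of all named genes. Of the 12, 1 ranged over 2-fold (highest over lowest lung, as signal + 25), against 3.42% of all tested genes: Scd, a fatty acid desaturase, had 529, 1168, 568, 629, 1098 and 1329, and it was high in lungs 2, 5 and 6.

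Of type I cell markers, 8 of 10 were in the top 10%. Cav1 was followed by Ager (7283 ± 416), a receptor of the basal membrane of type I cells, Hopx (7087 ± 277), a homeodomain cofactor, and Pdpn (5096 ± 246), a surface mucoprotein. The 10 genes had a median SD of 0.08, against 0.142 over all 7174 tested genes. The 100 genes of highest mean signal also had a median SD of 0.08. Of the airway, 5 of 9 club and secretory markers were in the top 10%, with Pigr (5934 ± 558), which carries IgA into the lumen, Cyp4b1 (4608 ± 271), a monooxygenase, and Sec14l3 (4199 ± 642) after Scgb1a1. The mucin gene Muc5ac of goblet cells stayed at 63.8 to 94.2. Of 6 ciliated cell markers 1, Tppp3 (3426 ± 260.2), reached the top 10%. Foxj1, the master regulator of motile cilia, had 296, 264, 389, 332, 196 and 337, and Tekt1 of the axoneme 267, 273, 244, 192, 281 and 219.8.

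Endothelium was strongly represented, with 11 of 18 markers in the top 10%. Epas1 led, followed by Ramp2 (5893 ± 478), a subunit of the adrenomedullin receptor, Kdr (5376 ± 295), the main receptor of vascular endothelial growth factor, and Cldn5 (5373 ± 572), the tight junction claudin of vessels. Sele, an adhesion molecule of activated endothelium, stayed at 3.48 to 58.3. Of fibroblast and matrix genes, 13 of 20 were in the top 10%, led by Mgp, Col3a1 (7166 ± 501), Sparc (5922 ± 751) and Fn1 (4604 ± 429). Among 29 measured collagens 9 were in the top 10%. Smooth muscle had 5 of 12 in the top 10%, led by the myosin kinase Mylk (5234 ± 354).

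Of monocyte and macrophage markers 4 of 19 were in the top 10%, Lyz2, Ccl6, Gpnmb and Csf1r. Ccl6, a chemokine of alveolar macrophages, had 5038, 5122, 6392, 6640.4, 3693 and 4808, and Csf1r, the receptor of macrophage growth factor, 1627 ± 224. Lyz2 is also a type II cell marker in rodents and stands in both lists. Of T and NK cell markers 1 of 22 was in the top 10%, the chemokine Ccl5 (1675 ± 341). The kinase Lck of T cells had 997 ± 73.6, and the granule protease Gzmk 786 ± 131. None of 11 neutrophil, 14 mast cell or 3 B cell markers was in the top 10%. Cd79b, part of the B cell receptor, had 305 ± 60.8. The mast cell carboxypeptidase Cpa3 had 331 ± 81.1.

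Markers of tissues other than lung were mostly below the median signal. Albumin (Alb) had 71.7 to 149 and the apolipoprotein Apoa1 3.57 to 8.12, both of liver, while Cyp2e1, which is also a lung enzyme, was the highest of the liver list with 534 ± 185. No marker of 13 for skeletal muscle, 8 for cartilage or 9 for liver was in the top 10%, and Myh1 (1305 ± 246), annotated as a skeletal myosin, was the highest of the skeletal list. Keratin Krt5 of basal cells stayed at 126 to 193. None of 16 olfactory and taste receptor genes was in the top 10%. For sex-linked genes, Xist was at 2.01 to 3.96 in the 6 male rats. Of 8 adipose tissue genes 1 was in the top 10%, the lipoprotein lipase Lpl (1895 ± 382), which lung also expresses.

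**Figure D2:**
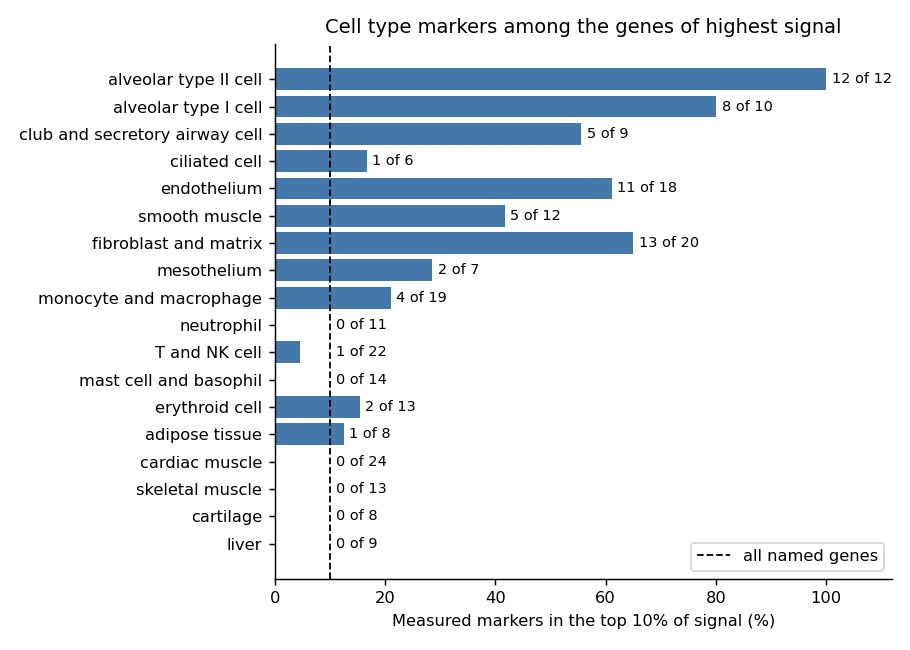
The share of the measured markers of each cell type that lay in the top 10% of mean signal, in percent, with the counts beside the bars and a dashed line at the 10% of all named genes. Type II, type I, fibroblast, endothelial and club cell markers lie far to the right of the line, and 6 of the lists drawn have no member in the top 10%.

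The families of highest signal were those of basic cell function. Genes whose names mark ribosomal proteins were in the top 10% in 38 of 49 cases, and together held 3.65 ± 0.0845% of the summed signal; the name pattern also takes in S6 kinases and Rpl3l. None of 46 tested members ranged over 2-fold, against 3.42% of all tested genes. Their median SD was 0.08, as was that of the 100 genes of highest mean signal. The largest SD among them was that of Rps4y2, 0.34, with 198, 177, 114, 126, 192 and 229. Respiratory chain and ATP synthase genes, 85 measured, held 1.87 ± 0.0707% with 35 in the top 10% and none of 82 ranging over 2-fold. Annexins, which bind membranes in the presence of calcium, had 8 of 9 in the top 10%, led by Anxa5 (6527 ± 507), and cathepsins, the lysosomal proteases, had 5 of 14, led by Ctsd (5840.2 ± 497) and Ctsh (5308 ± 344). Of proteasome subunits 10 of 34 were in the top 10%. By contrast 1 of 53 cytochrome P450 genes, 10 of 228 solute carriers and 0 of 17 kinesins were in the top 10%. Antioxidant enzymes had 9 of 18, among them Gpx3 (7984 ± 493), the secreted glutathione peroxidase, Gpx1 (5252 ± 461), its cytosolic form, Prdx6 (4799 ± 529), which also turns over surfactant lipid, and Sod1 (4268 ± 495). Of fluid transport genes, Nedd4 (6149 ± 400.5), Aqp1 (2807 ± 299), the water channel of capillaries, and Aqp5 (2388 ± 309), that of type I cells, were all in the top 10%.

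Between rats, most genes varied little. The median SD of a tested gene was 0.142 on the log2(signal + 25) scale (quartiles 0.101 and 0.197), and the median difference between the highest and lowest lung was 0.38 on the same scale. An SD under 0.1 was seen in 1772 genes, 24.7% of those tested. The spread fell with signal, from a median SD of 0.182 in the lowest of 5 equal bins of tested genes to 0.112 in the highest. The steadiest genes above the median signal of tested genes were Pgam1, a glycolytic mutase (2956, 2959, 3054, 3008, 2998 and 2949; SD 0.02), Dazap2 (3641 to 3764), Psmd4, a ubiquitin receptor of the proteasome (745 to 778), Tmsb4x, Gusb, a lysosomal glucuronidase (687 to 721), Mtg1, Impa1, Smad5, Glul and Lypla2. These 10 had SDs of 0.02 to 0.03 over the 6 lungs, the narrowest there. Each SD is that of the gene's probe set of highest mean log2 signal. The other tested probe sets of Glul had SDs of at least 0.155, above the median of 0.142.

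**Figure D3:**
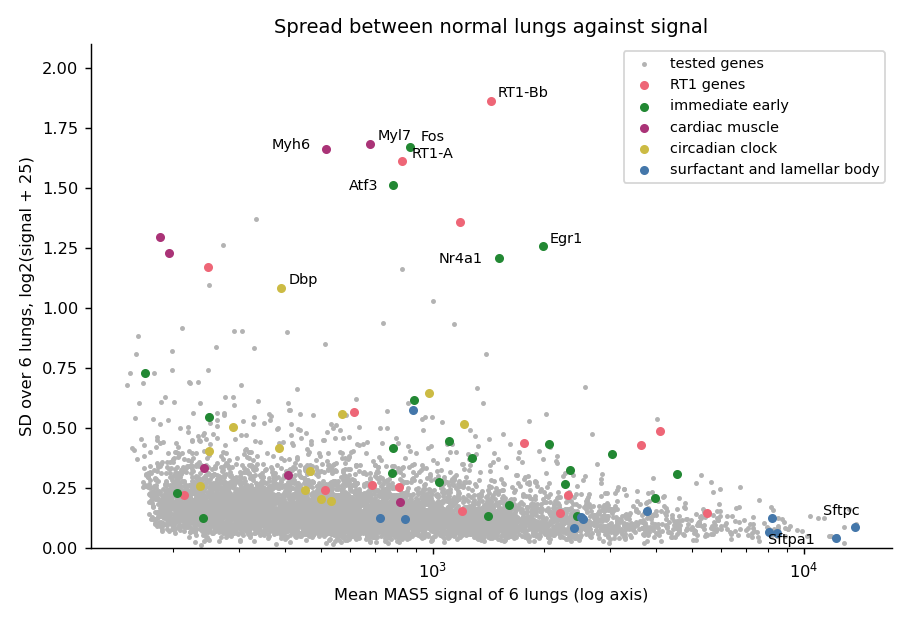
The SD of log2(signal + 25) over the 6 normal lungs (y axis) against mean signal (x axis, log scale), 1 point a tested gene, with 5 gene groups in colour. Surfactant genes lie at the lower right, and RT1, immediate early and cardiac muscle genes make up most of the highest points.

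Against this background a small set of genes differed widely. Over the 6 lungs 245 of 7174 tested genes, 3.42%, had a range of at least 2-fold on the scale of signal + 25, which is used for all ranges here, and 30, 0.418%, a range of at least 4-fold. Lungs 3 and 4 were the 2 highest in 61 of the 245 genes (24.9%), against 9.86% of all tested genes (707). Lung 5 was the lowest in 79 of the 245 (32.2%), against 22.2% of all tested genes (1593). Which lungs are high or low in a gene was seen in these values, so the shares are a description. A test asked whether a probe set scattered more than probe sets of like signal. It was an F ratio computed from limma's fit, of the residual variance to a prior with an intensity trend. Its p was Benjamini-Hochberg adjusted over 9652 probe sets, and it is named limma's variance test here for short. It called 18 probe sets, 0.186%, at an adjusted p under 0.05. Of these 18, 8 belonged to RT1 genes, the rat major histocompatibility complex, and 4 were the immediate early genes Fos, Egr1, Nr4a1 and Atf3. Myl7 and Myh6 of cardiac muscle and Cyp2a3 were called, as were 3 probe sets with no gene name. The unadjusted p was under 0.05 for 559 probe sets. The calls depended on single arrays and on the settings: limma made 0 calls with no low-signal filter and 0 with a prior without an intensity trend. Without lung 5 limma made 0 calls, with a smallest adjusted p of 0.143 and 491 probe sets at an unadjusted p under 0.05, and without lung 4 there were 9 calls.

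RT1-Bb had the largest SD of the tested genes, and other RT1 genes also varied widely. RT1 molecules present peptides to T cells, class I molecules on almost all cells and class II molecules on antigen-presenting cells, and the genes are known for their sequence variation between rats. Some RT1 genes are read by several probe sets, and some probe sets are annotated to several RT1 genes. Sequence differences between these outbred rats were not measured. Of 33 RT1 probe sets 28 were tested. A range of at least 2-fold was found in 15 of the 28, against 3.76% of all tested probe sets, and of at least 4-fold in 11, against 0.487%. The test for excess variance called 8 of 28, against 0.186%. The median SD of the 28 was 0.435, against 0.142 over all tested genes.

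A group of RT1 probe sets was low in lung 5, and several of them were almost silent there. The probe set 1370428_x_at, annotated to several class I genes, had 3238, 3356, 6876, 7555, 71.1 and 6159.6 in lungs 1 to 6 and an adjusted p of 0.00617 in limma's variance test. Lung 5 lay more than an order of magnitude below every other lung, and lungs 1 and 2 lay below lungs 3, 4 and 6. Probe set 1388255_x_at of RT1-CE5, also class I, had 604, 674, 1209, 1001, 4.3 and 1294 (limma adjusted p 0.0128), and 1371209_at of the same gene had 589, 549, 928, 879, 2.2 and 1017 (limma adjusted p 0.014). At 1370972_x_at, its probe set of highest mean log2 signal, RT1-CE5 was lowest in lung 5 but not silent. It had 590, 609, 699.5, 873, 259 and 651 there (limma adjusted p 0.429). In lungs 3, 4 and 6 the signal of 1370972_x_at lay below those of 1388255_x_at and 1371209_at. RT1-T24-3, a non-classical class I gene, had 967, 1272, 1659, 1932, 124 and 1168 (limma adjusted p 0.0238). RT1-A, the classical class I gene, had 153, 843, 1116, 1341, 89.3 and 1431 (limma adjusted p 0.0224), and here lung 1 was low as well. Class II genes showed it too. For RT1-Bb, the class II beta chain of the B locus, the probe set 1371065_at had 1287, 1533, 1961, 1794, 49.2 and 1973 (limma adjusted p 0.0128). The alpha chain gene RT1-Ba had 951, 1272, 2527, 2437, 84.3 and 2203 at 1377334_at (limma adjusted p 0.0128). The same step, with lung 5 below lungs 1 and 2 and these below lungs 3, 4 and 6, was found in 8 of the 28 tested RT1 probe sets and in 2.4% of all tested probe sets (232).

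Other RT1 probe sets had the reverse order. The probe set 1371033_at, also of RT1-Bb, had 2142, 2433, 53.2, 58.0, 3607 and 42.3 in lungs 1 to 6, with a limma adjusted p of 0.00718. It was thus near background in lungs 3, 4 and 6, where 1371065_at of that gene was highest, and highest in lung 5, where 1371065_at was lowest. RT1-Db1, a class II beta chain of the D locus, had 506, 549, 67.0, 78.3, 656 and 75.3 at 1370382_at (limma adjusted p 0.0738). RT1-CE16, of class I, had 649, 269, 107, 56.5, 322 and 81.9 (limma adjusted p 0.193). Lungs 1, 2 and 5 all lay above lungs 3, 4 and 6 in 5 of 28 tested RT1 probe sets and in 6.41% of all tested probe sets (619). RT1-N2, which was not tested for its low signals, was above 100 only in lungs 2, 3 and 4, with 12.4, 151, 359.8, 416, 4.3 and 4.6.

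Probe sets of a gene disagreed for RT1-Bb and RT1-Ba and not for all RT1 genes. The correlation of 2 probe sets over the 6 lungs was -0.61 for RT1-Bb and -0.71 for RT1-Ba, against 0.61 for RT1-Db1, 0.52 to 0.85 over the 6 pairs of RT1-S3 and 0.955 or more over the 6 pairs of RT1-CE5. At 1370383_s_at, RT1-Db1 had 2195, 3098, 2217, 2099, 2320.4 and 2011, with no group of lungs near background. At 1370822_at, RT1-Ba had 1893, 2407, 1397, 1132, 2335 and 1385, lower in lungs 3, 4 and 6, the opposite of 1377334_at. RT1-Da, the class II alpha chain of the D locus, ranged under 2-fold, with 5502, 6187, 5388, 5146, 6082 and 4726, as did RT1-DMb, of the class II loading complex, with 1152, 1377, 1106, 1169, 1336 and 1038. The partners of these molecules did not share the steps. The light chain gene B2m had 10108, 10774, 11151, 12202, 11579 and 9600.1 and Cd74 had 7519, 8782, 9149.8, 9457, 7949 and 8245. Without lung 5, 4 in place of 11 RT1 probe sets ranged over 4-fold and 9 in place of 15 over 2-fold.

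**Figure D4:**
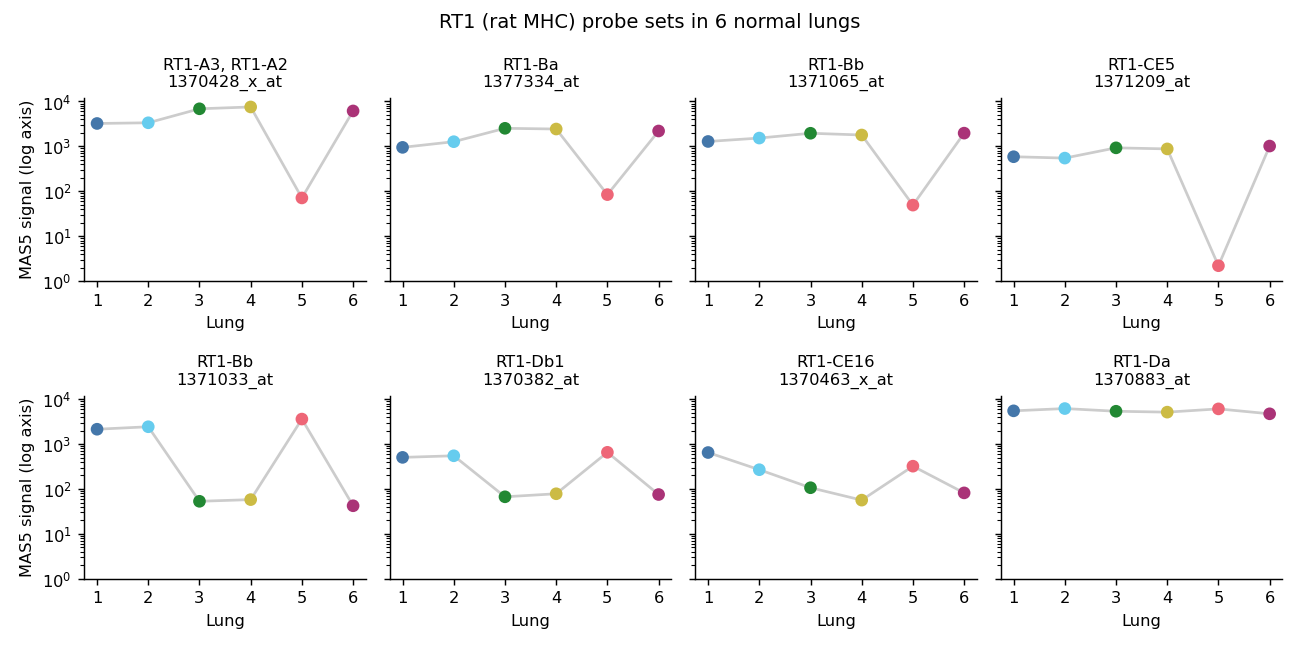
Signals of 8 RT1 probe sets in lungs 1 to 6, on a log axis. The upper 4 panels are lowest in lung 5, the probe sets of RT1-Bb (1371033_at), RT1-Db1 and RT1-CE16 are high in lungs 1, 2 and 5, and RT1-Da is level.

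Immediate early genes were another variable group. They encode transcription factors and signalling regulators that cells switch on within minutes of a stimulus, with no new protein needed. Of 30 measured genes, 8 were in the top 10% and 23 were tested. The range was at least 2-fold in 10 of the 23, against 3.42% of all tested genes, and at least 4-fold in 4, against 0.418%. Lungs 3 and 4 were the 2 highest in 16 of the 23, against 9.86%, and in 20 of the 30 measured, against 9.3% of all measured genes. Their median SD was 0.376, against 0.142. The summed signal of the list was between 0.396% and 0.713% of all named genes.

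Fos, a subunit of the factor AP-1, had 674, 171, 2027, 2003, 173 and 166 in lungs 1 to 6, a 10.8-fold range with a limma adjusted p of 0.0224. Lungs 3 and 4 were high and nearly equal, lung 1 was intermediate, and the other lungs lay together. Egr1, a zinc finger factor, had 1234, 613, 4335, 4168, 696 and 831 (limma adjusted p 0.0238). The nuclear receptor gene Nr4a1 had 561, 788, 3186, 3301, 554 and 649 (limma adjusted p 0.0246). The stress-induced repressor Atf3 had 292, 359, 1938, 1745, 183 and 161 (limma adjusted p 0.0241). In these 3 genes also lungs 3 and 4 lay above all others with no overlap. Fosb, a partner of Fos that was not tested for its low signals, had 121, 79.2, 753, 809.6, 48.3 and 25.9. It was highest in lungs 3 and 4 as well. The Kruppel-like factor Klf4 had 2409, 2117, 4146, 4009, 2670.2 and 2877 and the flow-responsive Klf2 of endothelium had 3817, 3459, 5912, 5553, 3935 and 4640.5. Both were again highest in lungs 3 and 4, with a range under 2-fold. Dusp1, a phosphatase that ends MAP kinase signals, had 2263, 2517, 2728, 2683, 2228 and 2245, a 1.22-fold range. These values are of its probe set of highest mean log2 signal. A weaker tested probe set of Dusp1 had an SD at least as large, and the correlation of the pair over the lungs was 0.38. The growth-related factor Ccn2 had 3669, 3607, 4342, 4444, 4618 and 3203. Without lungs 3 and 4, 3 of the 23 genes ranged over 2-fold and 0 over 4-fold, while without lung 5 the counts were 9 and 4.

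Other genes with lungs 3 and 4 on top included members of stress and cytokine lists. Cebpd, an acute-phase transcription factor, had 639.9, 1358, 2362, 2341, 969 and 706, and Mt2A, a metallothionein, had 376, 433, 959, 849, 453 and 429.7. Il1a, the alpha form of interleukin 1, had 303, 297, 715, 723, 240.2 and 302. Rgs1, a regulator of chemokine receptors already counted in the immediate early list, had 86.1, 127, 243, 294, 63.4 and 192. Of 12 tested glucocorticoid and metallothionein genes 4 ranged over 2-fold, against 3.42% of all tested genes. The glucocorticoid target Tsc22d3 had 2809, 2849, 3745, 3415, 3026 and 2789, also highest in lungs 3 and 4 but with a range of only 1.34-fold. The time between anaesthesia and freezing is not given for single rats, and its part in these values was not tested. The ratio of 3' to 5' actin signal was 1.45 and 1.49 in lungs 3 and 4 and between 1.31 and 1.54 in the others, and its part in these values was not tested.

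Promoter sequence of these genes, from RefSeq on the GRCr8 build and covering 250 bases before to 50 after the start, was searched for 4 known motifs on both strands. These were the CRE (TGACGTCA), bound by CREB, the E-box (CACGTG), bound by clock and MYC-type factors, the D-box (TTATGTAA or TTACGTAA), bound by Dbp and its relatives, and the CArG box of serum response factor. The table held 20 of the 30 immediate early genes and 13 of the 14 clock genes. Stretches of 3 promoters are shown because they give a promoter with both CRE and E-box, one with none of the 4 motifs in the searched window, and a clock output gene with an E-box; capitals mark motifs found by letter.
Dusp1, chr10:17184713-17184772, plus strand: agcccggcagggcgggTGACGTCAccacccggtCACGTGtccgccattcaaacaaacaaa
Nr4a1, chr7:134260038-134260097, plus strand: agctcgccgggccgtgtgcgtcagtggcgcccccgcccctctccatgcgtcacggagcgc
Tef, chr7:115206612-115206671, plus strand: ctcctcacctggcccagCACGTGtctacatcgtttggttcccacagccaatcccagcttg
A CRE stood in 2 of 20 immediate early promoters and in 1.83% of all 33469 promoters of the table. A CArG box stood in 4 of 20 against 1.64%, an E-box in 4 of 20 against 6.42%, and a D-box in 0 of 20 against 1.01%. Of the clock genes 3 of 13 had an E-box and 1 of 13 a D-box, and none a CRE or a CArG box. Dusp1, with CRE and E-box, ranged 1.22-fold between lungs at its probe set of highest mean log2 signal. Its other tested probe set correlated with that one at 0.38 over the lungs. Nr4a1, with none of the motifs in this window, ranged 5.75-fold. Egr1, with CArG boxes, ranged 6.83-fold. The promoters of Fos and Atf3 were not in the table. Whether motifs go with the range between lungs was not tested. These matches describe letters and not sites in use.

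Several transcripts of cardiac muscle also varied widely. In rodents, striated cardiac muscle extends from the left atrium along the pulmonary veins into the lung. None of 24 measured cardiac genes was in the top 10%, and 7 were tested. Of these 7, 4 ranged over 4-fold, against 0.418% of all tested genes. Myl7, the atrial regulatory light chain, had 583, 203, 1306, 1360.2, 40 and 577, a 21.3-fold range (limma adjusted p 0.023). Myh6, the alpha myosin heavy chain, had 388, 108, 1162, 988, 36.9 and 407 (limma adjusted p 0.0241). Lungs 3 and 4 were highest in both, lungs 1 and 6 followed, then lung 2, and lung 5 was lowest and near background. Myl4, the atrial essential light chain, had 191, 85.2, 372, 324, 14.8 and 177, and Csrp3, a Z-disc protein, had 179, 46.0, 339.9, 338, 15.5 and 189. Myl4 and Csrp3 passed the low-signal filter in only 3 lungs, lungs 3 and 4 among them. The order of the 6 lungs was read from these values, so its counts are a description. It was found in 4 of the 7 tested genes, against 1.17% of all tested genes (84). With no filter it was found in 12 of the 24 measured cardiac genes, against 1.29% of all measured genes (134). Tcap, a titin-binding protein of striated muscle outside the cardiac list, had 246, 88.4, 530.1, 542, 36.9 and 192 in the same order. The other 3 tested members ranged under 2-fold, with 750.5, 852, 838, 915, 633 and 897 for Cox7a1, 460.1, 313, 498, 454, 291 and 431 for Hspb7, which was also lowest in lungs 2 and 5, and 189, 185, 299.6, 260.4, 328 and 192 for Cox8b.

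The myosin chains Myl2, Myl3 and Myh7 of the cardiac list stayed low in all lungs. Myl2, the ventricular regulatory light chain, had 23.6 to 38.6, Myl3 16.5 to 42.5 and Myh7, the beta myosin heavy chain, 5.99 to 26.1. These 3 genes were chosen after their values were seen. The summed signal of the cardiac list ran from 0.0289% to 0.104% of all named genes. Lungs 3 and 4 were the 2 highest in 15 of the 24 measured cardiac genes, against 9.3% of all measured genes (968). They were so in 1 of 13 measured skeletal muscle genes, near that share. The skeletal actin Acta1 had 122, 105, 59.7, 116, 96.0 and 90.2. How much pulmonary vein or hilar tissue each specimen held is not recorded, and its part was not tested. Without lungs 3 and 4 all 4 genes still ranged over 4-fold, and without lung 5 all 4 ranged over 2-fold and 3 over 4-fold.

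Circadian clock genes varied more than most. The clock is a feedback loop in which Bmal1 and Clock activate genes, among them Per, Cry and Rev-erb repressors and the output factor Dbp, over the day. Of 12 tested members, 6 ranged over 2-fold against 3.42% of all tested genes, and 1 over 4-fold, with a median SD of 0.41. The output gene Dbp had 527, 92.0, 675, 640.0, 149.6 and 259 in lungs 1 to 6, and it was lowest in lungs 2 and 5. Nr1d1, the repressor Rev-erb alpha, had 1211, 376, 1168, 1174, 763 and 1172 and its relative Nr1d2 had 1404, 622, 1476, 1666, 899 and 1208. Lung 2 was lowest in both and lung 5 next. Bmal1, which these repressors silence, was highest in lung 2 with 234, 346, 185, 153, 311 and 273. The period genes followed another order, with 511, 709, 791, 756, 319 and 339 for Per1 and 466, 289, 538, 468, 269.6 and 288 for Per2. Clock itself ranged under 2-fold, with 454, 502, 467, 564, 669 and 538. Tef, a relative of Dbp that was not tested for its low signals, had 157, 46.4, 217, 144, 139.7 and 151. Lungs 2 and 5 were the 2 lowest in 6 of 12 tested members and in 8.87% of all tested genes (636). Without lung 2, 2 of the 12 ranged over 2-fold, so lung 2 decided this count. The time of day at which each lung was taken is not given and its part was not tested.

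**Figure D5:**
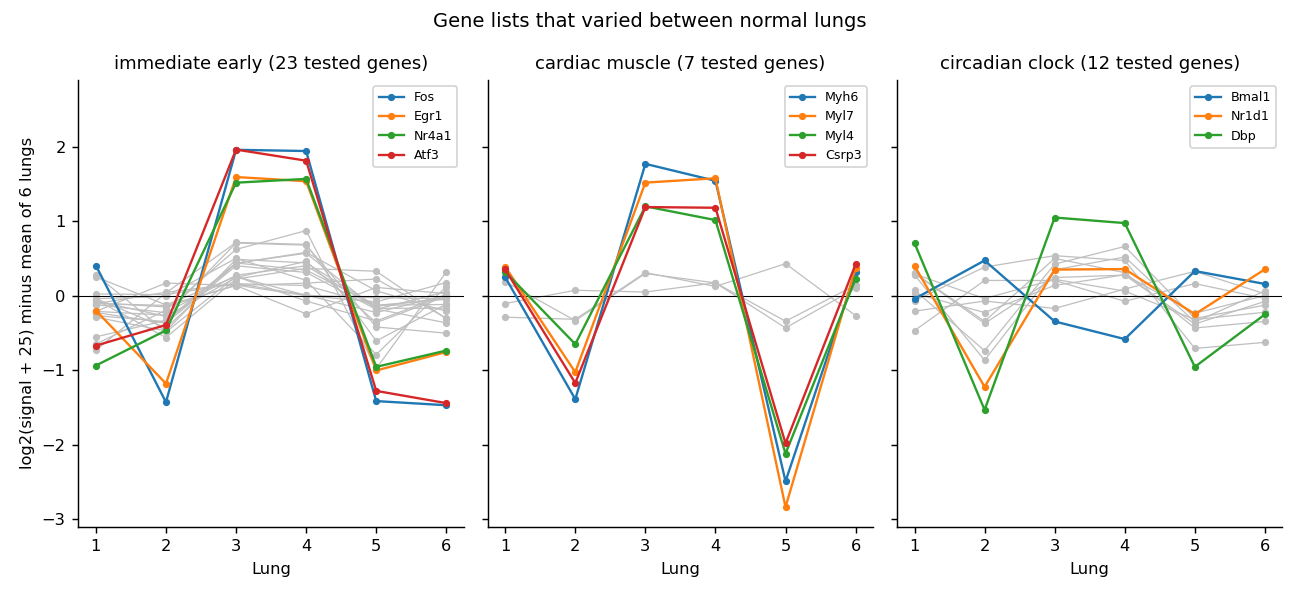
Tested genes of 3 lists, each line a gene, as log2(signal + 25) minus the mean of the 6 lungs (y axis) by lung (x axis), with named genes in colour. Immediate early genes peak in lungs 3 and 4, the 4 variable cardiac muscle genes also drop in lungs 2 and 5, and Dbp and Nr1d1 drop most in lung 2 while Bmal1 is highest there.

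Enzymes that turn over foreign compounds formed a smaller group, of which club cells are a main site in the lung. Of 16 tested xenobiotic genes, 4 ranged over 2-fold, against 3.42% of all tested genes, and 2 over 4-fold, against 0.418%. Cyp2a3, a P450 of the airways, had 517, 264, 1660.4, 1426, 225 and 860.1 (limma adjusted p 0.0447), with lungs 3 and 4 high and lungs 2 and 5 low. Cyp2f4, a club cell P450, had 1194, 813, 1862, 2047, 736 and 1546 in a similar order. The ethanol-inducible Cyp2e1 had 494, 285, 728, 738, 582 and 376. Cyp1a1, which is induced through the aryl hydrocarbon receptor, ran the other way with 1015, 1884, 452, 441, 1016 and 2058, lowest in lungs 3 and 4. The abundant Cyp4b1 stayed level with 4311, 4724, 4399.7, 4466, 5049 and 4698, as did Scgb1a1, the defining club cell gene.

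Lung 2 stood apart in several groups of smaller size. Smooth muscle genes were lowest in lung 2 in 9 of 12 tested members, against 14.1% of all tested genes (1013). The enteric-type actin Actg2 had 1679, 823, 1632, 1616, 1337 and 1679.8, the calponin Cnn1 had 663, 401, 699, 647, 471 and 709.6, and the actin-bundling Tagln had 3171, 2325, 3545, 3753, 3523 and 3388. Of these 12 genes 1, Actg2, ranged over 2-fold, against 3.42% of all tested genes, and the median SD was 0.243, against 0.142. The neutrophil genes of the calprotectin dimer were highest in lung 2, S100a9 with 1105, 2342, 1091, 1150.2, 847 and 1042 and S100a8 with 340.4, 696, 335, 235, 239.5 and 343. Lcn2, a siderophore-binding protein of neutrophils and epithelium, went the other way, with 1916, 983, 2055, 2008, 1239 and 1094, lowest in lung 2. Of the other neutrophil markers only Cxcr1 passed the low-signal filter (250.1, 162, 254, 253, 179.6 and 198), and it too was lowest in lung 2. The tested neutrophil markers thus did not move together, and a count over the list is not given as support. The mast cell tryptase Tpsb2 had 318, 55.5, 338, 277, 236 and 336, low in lung 2 alone, while the carboxypeptidase Cpa3 had 315, 282, 302, 232, 452 and 400.4.

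Lung 5 was highest in 10 of 15 tested heat shock genes, against 22.6% of all tested genes (1621), and none of the 15 ranged over 2-fold. Hspa5, the chaperone of the endoplasmic reticulum, had 2446, 2319.9, 2603, 2889.7, 4066 and 2724, and the cytosolic chaperone Hsp90ab1 had 5285, 4842, 5552, 5996, 7563 and 5003. The small heat shock protein Hspb1 had 2147, 1931, 2528, 2636, 3440.1 and 2605. Loxl1, a cross-linking enzyme of elastic fibres, was also highest in lung 5, with 784, 1101, 649.8, 766, 1892 and 793. Elastin itself (Eln) had 1755, 2162, 1234, 1162, 1793 and 2085, and here lungs 3 and 4 were lowest. The collagen gene Col3a1 had 7439, 7731, 6629, 6567, 7604 and 7025, with a 1.18-fold range.

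Red cell transcripts also differed between lungs. Hba-a3, an alpha globin, had 1931, 2651, 3564, 4046, 1094 and 2135, while Hbb ran from 11152 to 15011. Alas2, the first enzyme of haem synthesis in red cells, had 1004, 1268, 1668, 1772, 1144 and 1186. Both were highest in lungs 3 and 4, as were 5 of 8 tested erythroid genes against 9.86% of all tested genes. How much blood remained in each lung is not recorded, and its part in these values was not tested.

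Among the remaining genes of largest SD were several with 1 or more lungs near background. Clec3b, the plasminogen-binding tetranectin, had 419, 535, 96.2, 82.4, 72.5 and 797, and was low in lungs 3, 4 and 5. Nos2, the inducible nitric oxide synthase, had 146, 208, 454, 36.0, 214 and 442, and was lowest in lung 4. S100g, a calcium-binding protein, had 1358, 384, 1766, 1615, 519 and 371, high in lungs 1, 3 and 4. Ighl2, annotated as an immunoglobulin heavy chain, had 616, 198, 763, 898, 445 and 1478, with lung 6 highest. Pla2g2a, a secreted phospholipase, had 758, 184, 316, 402, 1051 and 375, and Pik3r1, a regulatory subunit of PI3 kinase, had 374, 510.3, 133, 157, 600.4 and 208. Slc16a12, a transporter of the monocarboxylate family, had 393, 468, 180.2, 195, 74.1 and 437, and Fabp3, a fatty acid carrier of muscle, had 225, 69.6, 334, 320.2, 84.5 and 159.5. Cmss1 had 24.2, 212, 171, 140.4, 203 and 215 and Ptpn23 had 48.9, 266, 204, 185, 239.6 and 249, with lung 1 low in both and signals close to the filter.

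Whether such differences belong to the gene or to 1 probe set could be checked where a gene had several. Over 1206 pairs of tested probe sets in 883 genes, the signals of a pair differed by a median of 1.88-fold. The correlation of a pair over the 6 lungs had a median of 0.263 over all pairs. It was 0.873 over the 34 pairs in which both probe sets had an SD of at least 0.3, and 0.199 over the 857 pairs in which the smaller SD was under 0.15. Pairs of a gene share their samples and arrays, so these values are a description. The 34 pairs of wide spread came from 23 genes, so they are not independent. Their correlation was above 0.8 in 18, among them the 6 pairs of RT1-CE5. The RT1-Bb and RT1-Ba pairs above were among those that ran in opposite directions.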

How the data were processed

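Lungs of 6 control rats, 1 array each, were described, out of 18 arrays. The authors deposited 1 linear intensity per probe set, summarised with MAS5 per the submitters' processing notes; its version is not given, and the design text names GeneSpring 7.2 for the later analysis. Arrays came scaled alike, with a 2% trimmed mean of 500.1 in each, so none was scaled again. Values were analysed as log2(signal + 25). A pseudocount of 25 understates the range of weak genes.

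The filter asked for a signal above the 40th percentile on at least 3 of 6 arrays. Excess variance was tested with an F ratio of the residual variance to the prior, computed from the eBayes fit of limma 3.58.1 in R 4.3.3. The prior was trended and robust with 5.27 degrees of freedom, and p was Benjamini-Hochberg adjusted. The ratio is not a test that limma itself reports. In simulated data the test called most probe sets whose SD was raised strongly and very few where it was raised less. The rest is description with Python 3.11.15, numpy 2.4.6, pandas 2.3.3, scipy 1.17.1 and matplotlib 3.10.9. Nothing beyond the 6 rats being separate is recorded, so the spread holds both rat and array differences, and their number limits its precision.

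Gene names came from the platform annotation, which paired 12783 probe sets with 1 symbol, 312 with several and 2771 with none. Of these 12783, 12748 matched RefSeq, with 0 symbols changed. The members and lists were chosen with earlier results of these data known. Named genes are the 40 of highest mean, the 40 of largest SD, the 10 of smallest SD above the median signal, and in each list or family the 4 of highest mean and the 4 of largest SD, or all of 6 or fewer; absent tissues could give any member. Bmal1, Per2, Nkx2-1, RT1-DMb, Myl2, Myl3, Myh7 and Cox8b were named after their values were seen. The alternatives tried were the pseudocount, the filter, the scaling, the choice of probe set, the prior and leaving out arrays.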

Additional observations from a re-analysis of the deposited data

Results flagged for a closer look

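Single lungs lay far from the other 5 in some genes, where the gap to the nearest lung, as a share of the whole range of the 6, was above Dixon's 95% critical value. Chance flags about 1 in 20 such groups, and 630 of 9652 tested probe sets, 6.53%, were past this value, 268 of them through lung 5. The values are shares of the range, with no explanation weighed.

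Lung 5 was low in RT1 probe sets, with 0.872 for RT1-Bb, 0.672 for RT1-CE5 at 1370972_x_at and 0.736 for RT1-T24-3. The share was 0.807 for 1370428_x_at, 0.836 for 1371209_at, 0.775 for 1371210_s_at, 0.721 for 1371213_at, 0.695 for 1377334_at and 0.806 for 1388255_x_at. It was also low in the mean of the MHC class II list (0.653) and in that of the T and NK cell list (0.694). The class II list includes RT1-Bb, and lung 5 was lowest in 2 of its 8 tested genes. In RT1-Da (6082) and RT1-DMb (1336) lung 5 was not low.

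Lung 2 was low in Actg2 (0.679), Tagln (0.648), Eef1a1 (0.681), Tef (0.685) and Tpsb2 (0.780), and in the list means of smooth muscle (0.639) and of mast cells and basophils (0.762). It was high in S100a8 (0.659), S100a9 (0.701), Defb4 (0.687) and RT1-Db1 (0.669).

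Lung 1 was low in Cmss1 (0.765) and Ptpn23 (0.762). Lung 6 was high in RT1-S3 at 1388212_a_at (0.856) and in Mtg1 (0.627), a gene whose signals stayed within 665 to 699. Lung 4 was low in the mean of the cell cycle list (0.633), by 0.1 or less on the log2 scale.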

How the results depend on the processing

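With 18 calls as deposited, limma's test for excess variance gave 0 calls with no low-signal filter (628 probe sets at an unadjusted p under 0.05, smallest adjusted p 0.219) and 0 with a prior without an intensity trend (435, smallest adjusted p 0.138), and 6 with a prior that is not robust. Leaving out 1 lung in turn gave 0 to 19 calls, 0 without lung 5 and 9 without lung 4. The count of genes with a 4-fold range, 30, was 19 with a pseudocount of 100, 71 with no filter and 57 with 1 array of 6 above the 40th percentile, and 21 to 25 with 1 lung left out. The count with a 2-fold range, 245, was 140 with a pseudocount of 100 and 961 with no filter, and 165 to 203 with 1 lung left out. The median SD of 0.142 became 0.125 with a pseudocount of 100 and 0.163 with no filter, and the median rank correlation of 0.967 became 0.982 with no filter. The 100 highest genes held 12% of the signal, in place of 10.8%, when each gene took its probe set of median mean, and 826 of the 1041 genes of the top 10% (79.3%) were then the same. In the other alternatives run, at least 1023 were the same. The cause of these moves was not tested, except that a filter changes the genes counted and fewer lungs narrow a range.

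Counts without chosen lungs were added after seeing the data. Immediate early genes with a 2-fold range fell from 10 to 3 without lungs 3 and 4, clock genes from 6 to 2 without lung 2, RT1 probe sets from 15 to 9 without lung 5, and all tested genes from 245 to 144 without lungs 3 and 4. The count of cardiac genes with a 2-fold range stayed at 4 in each of these. No paired analysis was possible because no groups are compared here, so a replicate block has nothing to pair. Signal over background limits the weak genes: the spread fell with signal, and values near the pseudocount of 25 carry no order.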
